A study of Drosophila melanogaster with 12 samples.

Results

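The nucleosomes of chromosome 4 of Drosophila melanogaster were examined in GNP cells and in glial cells of the embryo. They were chosen by position alone, as every predicted nucleosome that the maps place on chromosome 4 of the dm3 build. There were 5306 of 522119 nucleosomes in the GNP map and 5284 of 510664 in the glia map, or 1.02% and 1.03% of all calls. Together these were 10590 of 1032783 calls.

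Chromosome 4, also called the dot chromosome, is the smallest autosome of the fly. Most of its banded part is packed with heterochromatin proteins such as HP1a and is bound by the chromosome-specific protein POF, and repeats lie scattered between its genes. Its genes are nevertheless expressed, among them ci, the transcription factor of the Hedgehog pathway, pan, the TCF factor of Wnt signalling, ey and toy, the Pax6 genes of eye development, and Sox102F, a Sox factor. In chromatin, nucleosomes placed by remodelling enzymes form arrays with a near constant distance from one dyad (the midpoint of a nucleosome) to the next, and the regularity of such arrays is known to differ between active genes and silent chromatin.

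Both maps come from nuclei isolated with INTACT, in which a tagged nuclear envelope protein, 3xFLAG-blrp-mCherry-RanGap, is driven by Gal4 in chosen cells and the nuclei are caught on anti-Flag beads. The GNP sample (Gcm-expressed neural progenitor, titled GB and described as early glial cells in the labels) was from embryos 5 to 7 h after egg laying that carried gcm-Gal4 with UAS-mCDGFP over cyo, plus the UAS tag. The glia sample (late glial cells) was from embryos 12 to 14 h after egg laying that carried repo-Gal4 and the same UAS tag over Tm3B. Each sample pooled many formaldehyde-fixed embryos, the UAS-mCDGFP transgene was present only in the GNP line, and each driver decides which nuclei were caught. There was 1 MNase-seq library per cell type, in which micrococcal nuclease digests the linker DNA between nucleosomes. Cell type, embryo age, fly line and library therefore cannot be told apart. No p-value is given, and the 95% intervals below cover counting error only. The lists hold positions and no read counts or genes, so the depth is unknown and the cell type labels could not be checked against marker genes. Arms 2L, 3L and 3R, measured in the same way and pooled unless named, served as background.

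The calls on chromosome 4 spanned almost the same stretch in both maps. The first started at 180 in GNP and at 172 in glia, and the last ended at 1323963 in both. The number of nucleosomes was 5306 (Poisson 95% interval 5164 to 5451) in GNP and 5284 (5142 to 5428) in glia, a difference of -22. These intervals treat calls as independent, although starts lay at least 147 bp apart. They therefore cannot tell whether this difference is beyond error. The change was -0.415% on chromosome 4 against -2.22% on the background arms. Per megabase of spanned sequence there were 4008 nucleosomes in GNP and 3992 in glia, against 4365 and 4267 on the background arms. The density of chromosome 4 relative to the background was thus -8.17% in GNP and -6.46% in glia. Nucleosomes covered 58.9% of the span in GNP and 58.7% in glia, against 64.2% and 62.7%.

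Part of the lower density lay in long stretches without any call, counted where neighbouring dyads were more than 500 bp apart. There were 98 of them in GNP and 90 in glia, or 74.0 and 68.0 per megabase against 20.05 and 18.5 on the background arms, 3.69-fold and 3.67-fold as many. They left 10.1% of the span uncovered in GNP and 9.76% in glia, against 5.20% and 5.13%. Outside them the density was 4460 per megabase in GNP and 4423 in glia, a difference of -3.14% and -1.66% from the background measured likewise.

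The 5 longest of these stretches in GNP left 11742 bp uncovered at 40222 to 51963, 8362 bp at 692376 to 700737, 6365 bp at 342448 to 348812, 6237 bp at 28639 to 34875 and 5424 bp at 97057 to 102480. The glia map had its 5 longest at nearly the same places. They were 12630 bp at 39339 to 51968, 9029 bp at 25703 to 34731, 8341 bp at 692382 to 700722, 6459 bp at 342451 to 348909 and 5471 bp at 97140 to 102610. The 5 longest held 28.5% of the uncovered bases of all long stretches in GNP and 32.5% in glia. Of the long stretches, 86 of 98 in GNP and 84 of 90 in glia touched one in the other map (87.8% and 93.3%), against 79.1% to 84.0% and 86.8% to 91.1% on the separate background arms. Bases uncovered in both maps made up 90.8% of those in GNP and 94.1% of those in glia, against 94.3% to 94.8% and 94.4% to 96.8%. By value, the stretches of chromosome 4 touched more often and shared a smaller part of their bases than on any of the 3 arms. In glia the shared part was close to that of 3L (94.1% against 94.4%). No interval was computed for these few stretches, so no difference from the arms is read from them. How much of these stretches was repeat sequence, where unique mapping can fail, was not tested.

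The distance between neighbouring dyads on chromosome 4 was larger than on the background arms in both maps. Its median was 210 bp (95% interval 208 to 213) for GNP, where the background had 200 bp. For glia it was 216 bp (214 to 218), where the background had 209 bp. The quartiles were 177 and 271 bp in GNP and 182 and 267.5 bp in glia. The GNP map had its most frequent distance at 170 bp and the glia map at 173 bp, a few base pairs below the 173 and 176 bp of the background. The wider median was therefore not matched by a longer most frequent distance. Without the long stretches the medians were 209 and 215 bp.

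The share of distances from 160 to 200 bp, the range around the usual repeat and called regular here, was lower on chromosome 4 in both maps. On chromosome 4 it was 34.8% in GNP (1846 distances, Wilson 95% interval 33.5% to 36.1%) and 32.2% in glia (1699 distances, 30.9% to 33.4%). The background had 41.0% and 35.2%, so that chromosome 4 differed by -6.16 points in GNP and -3.04 points in glia. The separate background arms lay close together, from 40.4% to 41.8% in GNP and from 34.7% to 35.7% in glia. Distances of 251 to 296 bp, just short of a gap, made up 16.3% in GNP and 15.9% in glia, against 12.9% and 15.1%. The interval in glia (14.9% to 16.9%) includes the background value. Distances below 160 bp differed little from the background in GNP (9.27% against 9.29%) and were fewer in glia (7.34% against 8.45%).

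**Figure D1:**
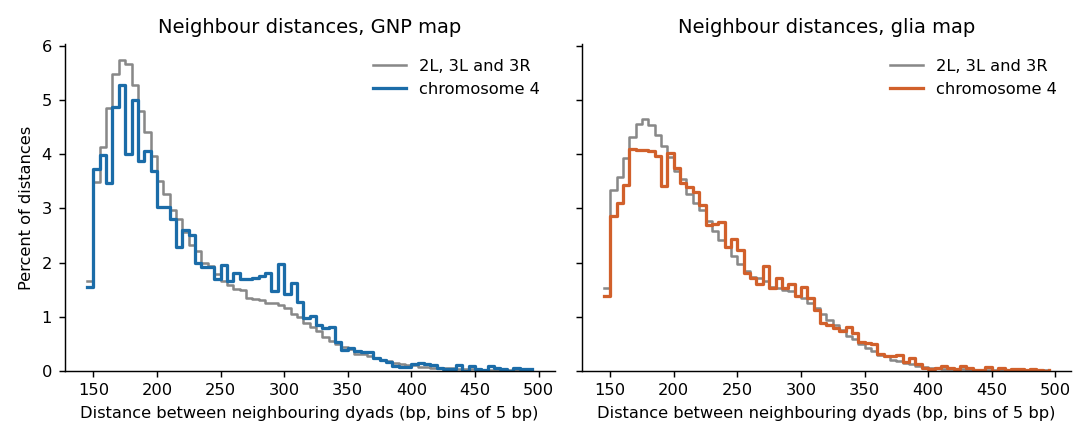
Share of neighbouring dyad distances (y axis, percent) by distance in bp (x axis) on chromosome 4 and on arms 2L, 3L and 3R in GNP and glia. The chromosome 4 line is lower around the regular range in both maps (34.8% against 41.0% in GNP, 32.2% against 35.2% in glia). From 251 to 296 bp it is higher in GNP (16.3% against 12.9%), while in glia the lines lie close together (15.9% against 15.1%).

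Between the maps, the regular share differed less on chromosome 4 than on the background arms. By value, the shares below 160 bp and from 201 to 250 bp differed more. The median distance was 6 bp wider in glia (1 to 10 bp, from the outer limits of both medians), against 9 bp. That interval includes the background value. The regular share differed by -2.64 points, glia minus GNP (Newcombe 95% interval -4.43 to -0.840), against -5.75 points. The range from 201 to 250 bp was more frequent in glia, at 23.5% in GNP and 29.4% in glia, against 24.9% and 28.4%. The share below 160 bp differed by -1.93 points (-2.98 to -0.879) on chromosome 4 and by -0.846 points (-0.984 to -0.708) on the background. These 2 intervals overlap.

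A same-size comparison was made by dividing the background arms into 56 full blocks of 1.3 Mb, counted from base 1. The rest at the end of each arm was left out. On 2L (beyond 22100000) and 3L (beyond 23400000) this rest is sequence toward the centromere. Chromosome 4 fell outside the range of all 56 blocks in GNP for the median distance (197 to 206 bp in the blocks), the regular share (37.9% to 43.4%), the gap share (9.99% to 13.9%) and the number of long stretches (7 to 72). In glia it fell outside for the median distance (207 to 213 bp), the regular share (33.2% to 37.3%) and the number of long stretches (4 to 72). For some measures the difference between the maps also lay outside the blocks. Glia minus GNP, the regular share differed by -8.39 to -3.43 points in the blocks and by -2.64 on chromosome 4, and the nucleosome number by -209 to -40 against -22. Other differences lay inside the range of the blocks, among them the median distance (6 bp, with 5 to 13 bp in the blocks), the share in runs (-1.62 points, with -8.08 to -1.15) and gained minus lost (0.661 points, with -1.23 to 0.948). For the median distance, the regular share, the runs and the first repeat in GNP, the block nearest to chromosome 4 was that at 20800001 to 22100000 of 2L, toward the centromere, with a median distance of 206 bp and a regular share of 37.9%. These blocks were laid out after the values had been seen and describe where 1 chromosome falls among stretches of its own size.

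Array order over several nucleosomes was read from the number of dyad pairs at each distance, relative to the number for evenly placed dyads. On chromosome 4 the searched maxima lay at 170, 373 and 551 bp in GNP and at 173, 435 and 634 bp in glia. Searched in this way, the peak over trough in GNP was 3.27, 1.46 and 1.46 for repeats 1, 2 and 3, against 4.45 to 4.89, 1.72 to 1.83 and 1.402 to 1.45 on the separate background arms. In glia it was 3.16, 1.502 and 1.21, against 3.16 to 3.24, 1.287 to 1.294 and 1.09 to 1.12. By search, the ratio of chromosome 4 was thus lower at repeats 1 and 2 in GNP and higher at repeats 2 and 3 in glia. Its interval was clear of the background arms only at repeat 1 in GNP (2.76 to 3.89). At repeat 2 in GNP (1.22 to 1.75) and repeats 2 and 3 in glia (1.25 to 1.81 and 1.01 to 1.45) the interval reached background values. A search picks the highest and lowest points and chromosome 4 has few pairs, so the signal was also read at the peaks and troughs found on the background arms. For the first repeat in GNP (peak at 173 bp, trough at 290 bp) the peak was 2.57-fold (2.33 to 2.83) the trough, against 3.99-fold to 4.17-fold on 2L, 3L and 3R. At repeat 2 in GNP (365 and 467 bp) the ratio was 1.11 (0.996 to 1.23) against 1.65 to 1.76. At repeat 3 (566 and 655 bp) it was 1.10 (0.991 to 1.22) against 1.35 to 1.41. At these fixed positions the first repeat was clear on chromosome 4, and the intervals of repeats 2 and 3 in GNP included 1.

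In glia the first repeat (176 and 295 bp) had a ratio of 2.47 (2.23 to 2.75) on chromosome 4, against 2.87 to 2.97 on the background arms. Repeat 2 (376 and 470 bp) had 1.12 (1.01 to 1.25) against 1.21 to 1.22, and repeat 3 (560 and 665 bp) had 0.976 (0.877 to 1.09) against 1.06 to 1.08. The direction of repeats 2 and 3 in glia and of repeat 3 in GNP against the background thus turned with the reading, and the fixed positions are those of the background. Read at them, all 3 repeats in GNP and the first in glia were below those of all 56 blocks, while repeat 2 in glia was below 52 of them and repeat 3 below 53. The blocks are parts of the arms that set these positions, so this reading favours higher ratios in the blocks than on chromosome 4. Repeats 1 and 2 in GNP were below every background arm in both readings, and of these only repeat 1 had both intervals clear of the arms. Glia minus GNP, the ratio of the first repeat differed by -0.0912 on chromosome 4 and by -1.68 to -0.555 in the blocks, and that of repeat 2 by 0.017 against -0.758 to -0.172. At the fixed positions, the first repeat thus differed less between the maps on chromosome 4 than in any of the 56 blocks. The ratio of repeat 2 on chromosome 4 was already near 1 in GNP (1.11) and had little room to fall. Its small difference therefore cannot be compared with that of the blocks.

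**Figure D2:**
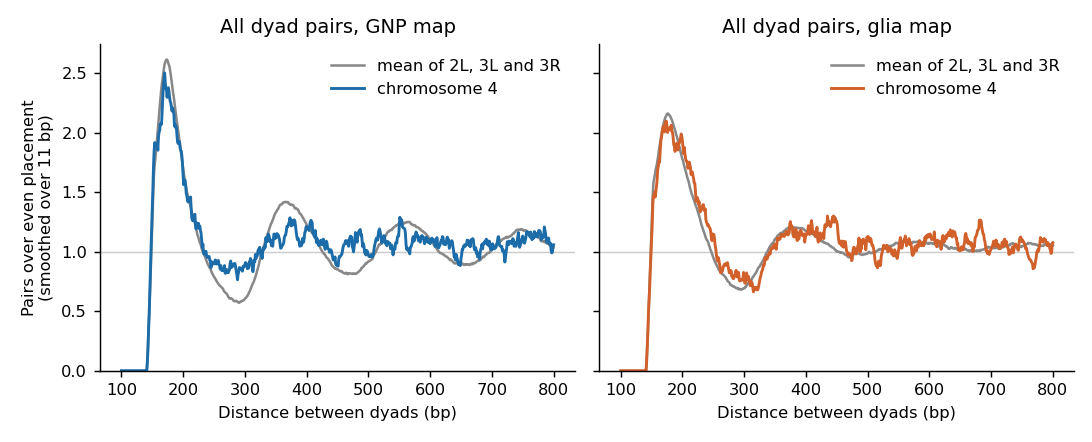
Pairs of dyads by distance (x axis, bp) divided by the count from even placement (y axis) for chromosome 4 and arms 2L, 3L and 3R in each map. The first repeat is seen in every line. For repeats 2 and 3 on chromosome 4 in GNP, the searched peak over trough was 1.46 and 1.46. At the fixed positions it was 1.11 and 1.10.

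Runs of 5 or more nucleosomes with every distance from 160 to 200 bp were counted as well. Their number depends on the regular share, so they are not separate evidence of array order. Whether there were more runs than the same distances in random order would give was not tested. There were 52 runs on chromosome 4 in GNP and 36 in glia. In GNP, 27 runs held 5 nucleosomes, 20 held 6 and 5 held more, with 8 in the longest. In glia the numbers were 18, 13 and 5, with 10 in the longest. Runs held 293 nucleosomes or 5.52% in GNP and 206 or 3.90% in glia, against 10.7% and 5.81% on the background arms. Glia minus GNP, the share in runs differed by -1.62 points (-2.43 to -0.818), against -4.89 points on the background. In the 56 blocks the share in runs ranged from 6.46% to 14.0% in GNP and from 4.14% to 8.05% in glia.

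The 3 longest runs in GNP each held 8 nucleosomes, at 417304 to 418713, 917161 to 918550 and 1286605 to 1288053. In the last of them, 5 dyads in a row, from 1286842 to 1287621, lay within 5 bp of a glia dyad, at offsets of 0, -4, -4, -2 and 5 bp. In the run at 917161, the last 4 dyads, from 917962 to 918477, had their closest glia dyad at offsets of -80, -80, -80 and -69 bp. The glia dyads there lay near the midpoint between neighbouring GNP dyads. In the run at 417304, the offsets ranged from -175 to 111 bp, with 1 dyad at the same position (417910).

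The longest run in glia held 10 nucleosomes at 738903 to 740693, and 4 others held 7 each, at 716906 to 718121 and 736346 to 737532 in the same 100-kb window (window 8), at 1002701 to 1003935 in window 11 and at 1157655 to 1158880 in window 12. The first 2 of these by position are drawn. In the run at 716906 every glia dyad had a GNP dyad at offsets from -19 to 32 bp. In the run at 736346 the offsets had sizes from 48 to 115 bp, and 5 of the 7 lay between 80 and 86 bp. Of the GNP runs 8 of 52 (15.4%) overlapped a glia run, and of the glia runs 8 of 36 (22.2%) overlapped a GNP run, against 11.4% and 20.3% on the background arms.

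**Figure D3:**
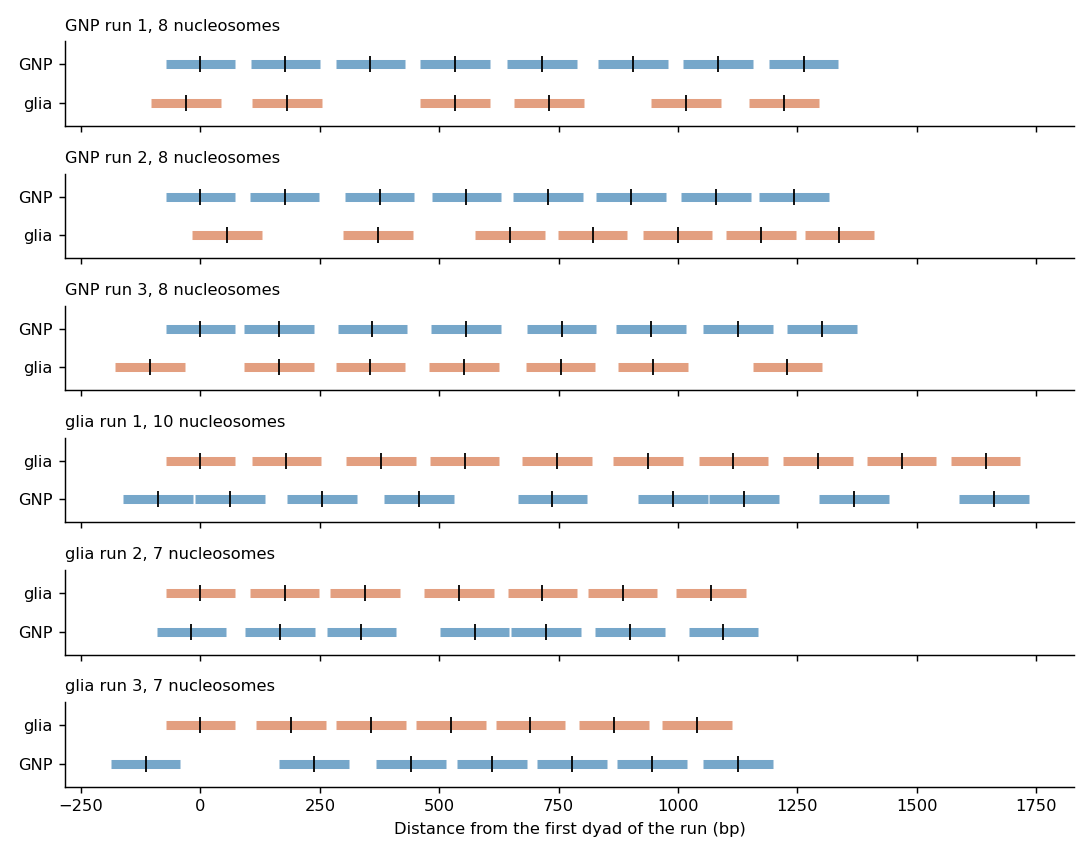
Dyads of the longest array runs on chromosome 4 (x axis, distance in bp from the first dyad of the run) with the dyads of the other map at the same place. Bars are nucleosomes, ticks are dyads, and the y axis names the map. The GNP run at 1286605 shows 5 dyads within 5 bp of glia dyads, and in that at 917161 the offsets of the last 4 are -80, -80, -80 and -69 bp.

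Gaps were counted where neighbours up to 500 bp apart left at least 150 bp free, about the room of 1 nucleosome. Chromosome 4 had 758 gaps in GNP, or 14.3% of distances (13.4% to 15.3%), and 715 in glia, or 13.5% (12.6% to 14.5%). The background had 11.5% and 12.4%. Gaps were thus more frequent on chromosome 4 by 2.82 points in GNP and by 1.11 points in glia. For gaps of at least 200 bp the excess in GNP was 0.584 points. Glia minus GNP, the share differed by -0.754 points (-2.07 to 0.564), so no difference could be told at these numbers. It differed by 0.961 points on the background and by -0.323 to 2.22 points in the 56 blocks. With gaps of at least 200 bp the difference on chromosome 4 had the opposite sign (0.016 points). The median gap was 176 bp long in GNP and 179 bp in glia.

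Of the GNP gaps, 497 (65.6%) held a glia dyad, against 68.3% on the background arms. Of the glia gaps, 448 (62.7%, 59.1% to 66.1%) held a GNP dyad, against 69.5%. Gaps that shared at least 75 bp with a gap of the other map numbered 178, which is 23.5% of the GNP gaps and 24.9% of the glia gaps. The background shares were 21.8% and 20.6%. Most gaps of either map thus held a dyad of the other map on the background arms as well, and the share on chromosome 4 was not higher. How many gaps would hold one by chance was not tested.

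The distance from each dyad to the closest dyad of the other map had a median of 42 bp (38 to 45) from GNP and 41 bp (38 to 45) from glia, against 38 and 35 bp on the background arms. In the 56 blocks it ranged from 35 to 41.5 bp from GNP and from 32 to 39 bp from glia. There were 93 nucleosomes at the same position in both maps, 1.75% of GNP and 1.76% of glia, against 1.73% and 1.77%. Within 20 bp lay 2120 GNP nucleosomes (39.95%) and 40.1% of the glia nucleosomes, against 40.4% and 41.4%. The close classes thus hardly differed from the background. Farther out, distances of 70 to 80 bp were 1.92 times (1.64 to 2.25) as frequent as those of 35 to 45 bp, against 1.58 times (1.55 to 1.61) on the background. These ranges were not among the planned measures and lie at a rise and a dip of the same curve, so the contrast is a description.

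**Figure D4:**
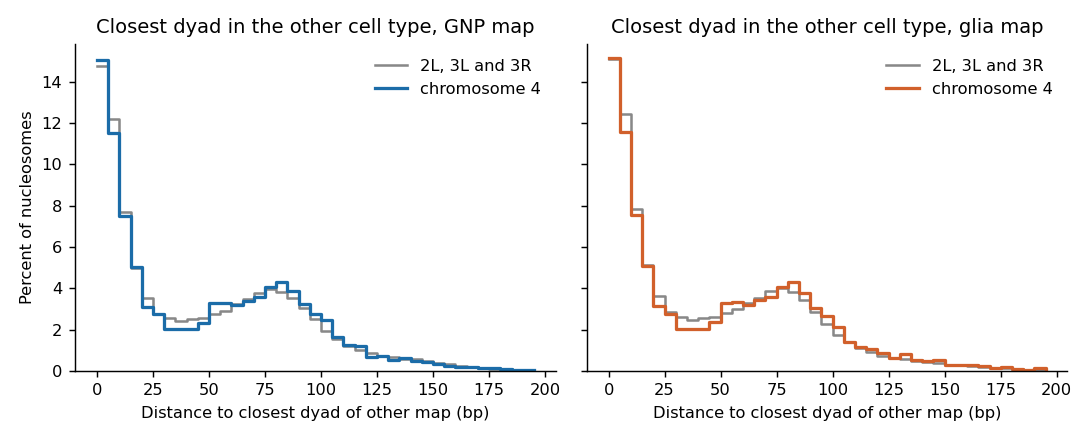
Share of nucleosomes of each map (y axis, percent, bins of 5 bp) by distance in bp to the closest dyad of the other map (x axis) on chromosome 4 and on arms 2L, 3L and 3R. The lines run together near 0 and separate farther out, where in GNP 70 to 80 bp is 1.92 times as frequent as 35 to 45 bp on chromosome 4 and 1.58 times on the background.

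Nucleosomes were called lost (from GNP) or gained (in glia) where the best overlap with the other map was at most 20 bp. On chromosome 4, 224 were lost (4.22%, 3.71% to 4.80%) and 258 gained (4.88%, 4.33% to 5.50%), against 4.43% and 3.96% on the background arms. The gained share exceeded the lost share by 0.661 points (-0.134 to 1.46), against -0.470 points on the background. The interval on chromosome 4 includes 0, and the difference was -0.286 points when an overlap of up to 73 bp counted. In glia the gained share lay above that of every block (3.38% to 4.85%). Of the lost nucleosomes, 177 (79.0%) lay in a glia distance of 297 to 500 bp, 31 (13.8%) in one of 252 to 296 bp and 16 (7.14%) in a long stretch, against 81.6%, 15.7% and 2.65% on the background. Of the gained, 199 (77.1%) lay in a GNP distance of 297 to 500 bp, 31 (12.0%) in one of 252 to 296 bp and 28 (10.9%) in a long stretch, against 83.7%, 11.7% and 4.31%. By the definition, a lost or gained nucleosome can lie between neighbours of the other map only where these are at least 252 bp apart. Distances of 252 to 296 bp leave little room for one, so the split between these ranges is partly set by the definition. No preferred placement can be read from it. Compared with the background, counted in the same way, the main difference was the larger share in long stretches, which are more frequent on chromosome 4. No tract held more than 3 lost or 2 gained nucleosomes in a row.

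Beside a long stretch, nucleosomes of chromosome 4 were unmatched more often than the others, at 8.24% lost (4.97% to 13.3%) and 13.3% gained (8.86% to 19.5%) against 4.09% and 4.62%. The background had the same pattern, with 9.82% lost and 11.6% gained beside long stretches against 4.38% and 3.90% elsewhere. The median distance to the other map beside long stretches was 26 bp from GNP (12 to 54) and 25 bp from glia (11 to 52), against 42 and 41.5 bp for the rest, and these intervals include the values of the rest. In the runs, 36.5% of GNP nucleosomes (31.2% to 42.2%) lay within 20 bp of a glia dyad, against 41.8% in the runs of the background, and 45.1% of glia nucleosomes lay within 20 bp of a GNP dyad, against 44.8%.

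Along the chromosome, windows of 100 kb were counted from base 1, and 13 of 14 held at least 200 nucleosomes in both maps. The last window, from 1300001, held 24 kb of calls with 42 nucleosomes in each map and is given apart. The background arms had 749 such windows. The GNP median distance of every one of the 13 windows was above the median of the background windows (200 bp), as was the glia median of 11. The regular share was below the background median in 13 of 13 windows in GNP and in 12 of 13 in glia. The spacing differences were therefore spread over the whole chromosome rather than lying in 1 stretch of it.

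**Figure D5:**
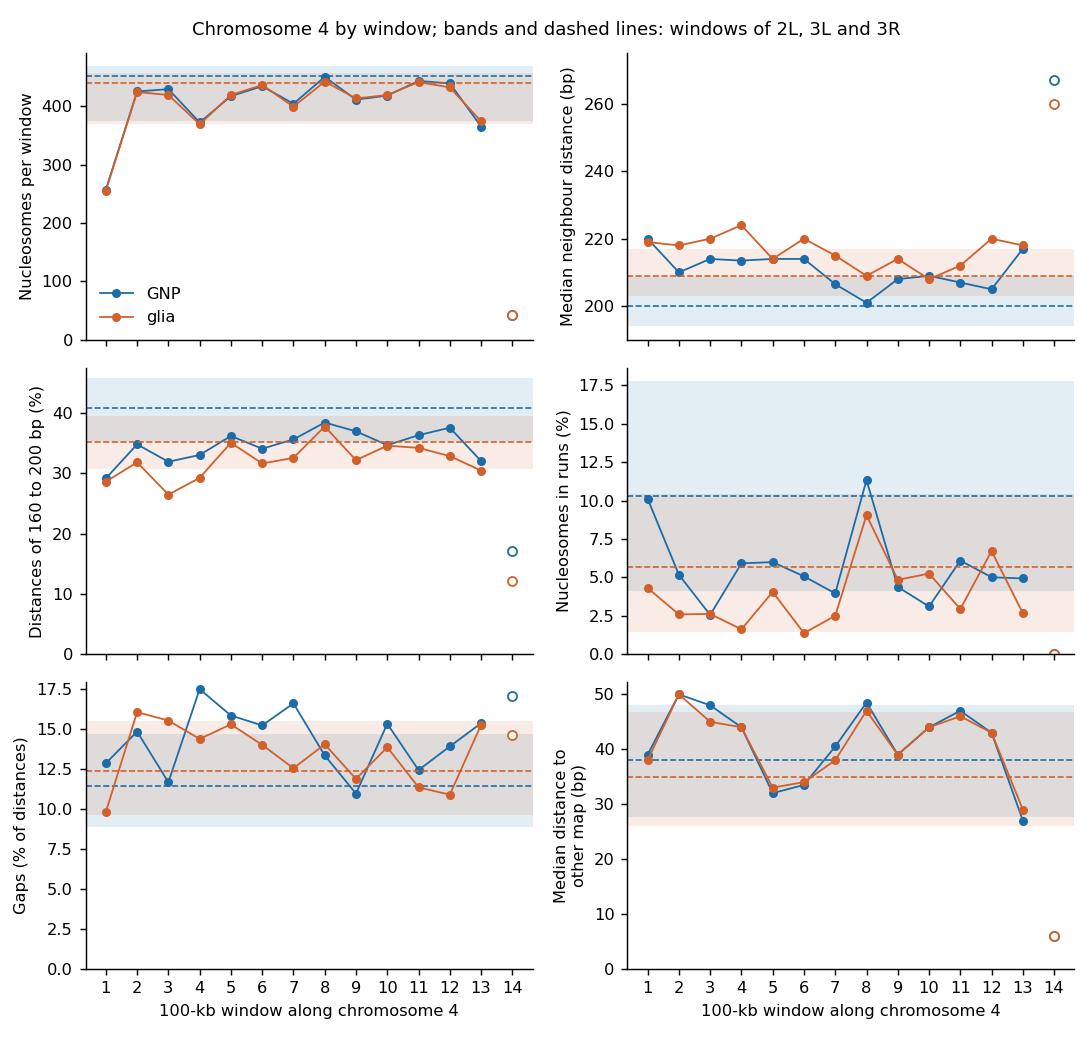
Values of 100-kb windows along chromosome 4 (x axis, window number) in GNP and glia for 6 measures (y axes, with units), where dashed lines and bands are the median and the 5th to 95th percentile of the 749 background windows and the open points are window 14. Window 8 has the most nucleosomes (450 in GNP and 442 in glia) and window 1 the fewest of the 13 (257 and 255).

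The number of nucleosomes was highest in window 8 (700001 to 800000), with 450 in GNP and 442 in glia, and in window 11 (443 and 441). It was lowest in window 1 (257 and 255) and next in window 13 in GNP (365) and window 4 in glia (369). Window 1 held 17 long stretches in GNP and 14 in glia, with 45.6 and 45.7 kb uncovered. Windows 13 and 14 together held 23 and 25 long stretches. The ends of the chromosome thus carried much of the uncovered sequence. Glia had fewer nucleosomes in 8 of 13 windows and more in 5, against fewer in 87.3% of background windows. Of the 13 windows 0 had at least 5% more nucleosomes in glia and 0 at least 5% more in GNP, where 0% and 7.34% of the background windows did.

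The median distance in GNP was shortest in window 8 (201 bp) and window 12 (205 bp) and longest in window 1 (220 bp) and window 13 (217 bp). In glia it was shortest in window 10 (208 bp) and window 8 (209 bp) and longest in window 4 (224 bp), followed by 220 bp in windows 3, 6 and 12. It was wider in glia in 10 windows, equal in window 5 and narrower in windows 1 and 10 (-1 bp in both), against wider in 94.8% of the background windows. The difference reached 10 bp in 2 of 13 windows, window 12 (15 bp) and window 4 (10.5 bp), where 46.6% of the background windows reached it.

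The regular share was highest in window 8 in both maps (38.4% in GNP and 37.8% in glia), followed by window 12 in GNP (37.6%) and window 5 in glia (35.1%). It was lowest in window 1 (29.2%) and window 3 (31.9%) in GNP and in window 3 (26.5%) and window 1 (28.6%) in glia. It was lower in glia in all 13 windows. Glia minus GNP, the difference was smallest in window 10 (-0.083 points) and window 1 (-0.555) and largest in window 9 (-4.78) and window 3 (-5.44). It reached 5 points in 1 of 13 windows, against 57.9% of the background windows. The regular shares of the maps went together across the 13 windows (r = 0.812), where r was 0.284 over the 749 background windows. For other measures the contrast was smaller. For the median distance r was 0.550 against 0.435, for gaps 0.374 against 0.268 and for nucleosome number 0.995 against 0.973. These are descriptions, since both maps share sequence and mappability and 13 windows give an imprecise r. The order of the windows by regular share was similar in the maps, with window 8 first and windows 1 and 3 last.

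The share of nucleosomes in runs was also highest in window 8, at 11.3% in GNP and 9.05% in glia. Next came window 1 in GNP (10.1%, with 4.31% in glia) and window 12 in glia (6.71%, with 5.01% in GNP). Lowest were windows 3 (2.56%) and 10 (3.11%) in GNP and windows 6 (1.38%) and 4 (1.63%) in glia. Gaps were most frequent in windows 4 (17.5%) and 7 (16.6%) in GNP and windows 2 (16.0%) and 3 (15.5%) in glia. They were least frequent in windows 9 (10.9%) and 3 (11.7%) in GNP and windows 1 (9.80%) and 12 (10.9%) in glia. Window 3 was thus among the lowest in GNP and among the highest in glia.

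The median distance from a GNP dyad to the closest glia dyad was largest in window 2 (50 bp) and window 8 (48.5 bp) and smallest in window 13 (27 bp) and window 5 (32 bp). From glia the same windows stood at 50, 47, 29 and 33 bp. It was 40 bp or more from GNP in 8 of 13 windows, against 38.3% of the background windows. Window 8, the most regular in both maps, was thus among those with the largest distance between them. Window 14 stood apart from the 13, with median neighbour distances of 267 bp in GNP and 260 bp in glia, a median of 6 bp between the maps and 69.0% of its nucleosomes within 20 bp of the other map.

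Part of the background resembled chromosome 4 more than the rest did. Of all background windows, 4.01% had a lower regular share than the median window of chromosome 4 in GNP and 12.7% in glia. Of the 56 windows in the 2 Mb at the pericentromeric ends of 2L, 3L and 3R, 30.4% and 39.3% did. Those windows had a median regular share of 38.4% in GNP and 33.4% in glia and a median distance of 203.5 and 213 bp. The low regular share of chromosome 4 was thus met more often beside the centromeres than along the arms, and in most windows there it was still higher.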

How the data were processed

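The authors aligned single-end MNase-seq reads to dm3 with Bowtie (version 0.12.7 in the submitters' processing notes), allowing up to 2 mismatches, kept uniquely mapped reads and predicted nucleosomes with GeneTrack, whose settings are not given in the sources used here. Each deposited list holds 3 columns, the chromosome, start and end. End minus start was 146 bp throughout, and the smallest distance between starts was 147 bp. Whether positions count from 0 or 1 could not be settled, so they are given as listed, with an uncertainty of 1 bp.

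The dyad was taken as the start plus 73 bp. Python 3.11.15 with NumPy 2.4.6 and SciPy 1.17.1 gave neighbour distances, runs, gaps, closest dyads and pair counts smoothed over 11 bp (fixed-position ratios over 31 bp). Intervals are Wilson, Newcombe, exact Poisson or order-statistic intervals at 95%. Scripts were tested on simulated data. Other bounds, window sizes and backgrounds were tried as alternatives. Leaving out nucleosomes beside long stretches, the fixed-position ratios and the 1.3 Mb blocks were added after seeing the data. For each window measure, the 2 highest and 2 lowest windows are named, with the first and the last, and the 5 longest stretches and 3 longest runs of each map. Members, rules and lists were chosen with earlier results of these data known. The other 10 samples, ChIP-seq of 5 histone marks, were not analysed here. The gene table used here is of another assembly (Release 6) and served for gene names only.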

Additional observations from a re-analysis of the deposited data

How the results depend on the processing

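Of 103 alternative values, 56 stayed close to the value reported, 45 moved further and 2 differences changed sign. The ratio of repeat 3 in glia crossed 1, from 1.21 to 0.976, when read at the fixed positions. The gap share, glia minus GNP, was 0.016 points with gaps of 200 bp or more, and gained minus lost was -0.286 points with overlaps up to 73 bp. Chromosome 4 minus background was -4.30 points for the regular share in GNP with bounds 5 bp narrower at each end. The share in runs, glia minus GNP, was -0.263 points for runs of 8 or more and -4.08 from 150 to 210 bp. Against the background it was -7.42, -1.23 and -10.9 points in GNP and -3.17, -0.288 and -6.43 in glia, for runs of 4 or more, runs of 8 or more and 150 to 210 bp. Gaps exceeded the background by 6.02 (100 bp or more) and 0.584 points (200 bp or more) in GNP and by 2.31 points (100 bp or more) in glia. Long stretches over 1000 bp were 2.88-fold and 2.84-fold the background. Without distances over 500 bp the density ratio was 0.969 and 0.983. Mutually closest pairs had a median of 27 bp from both maps. The repeats searched on chromosome 4 itself gave 3.27, 1.46 and 1.46 in GNP and 3.16, 1.502 and 1.21 in glia, and at the fixed positions, an alternative chosen after seeing the data, 2.57, 1.11, 1.10, 2.47, 1.12 and 0.976. Background windows with a lower regular share than chromosome 4 numbered 8.08% in GNP and 23.4% in glia for 50 kb, 17.6% in glia for 200 kb, 7.00% and 17.3% with 3L alone, 1.08% and 9.32% with 3R alone, 5.87% and 15.5% without the first and last window, 30.4% and 39.3% with the pericentromeric 2 Mb alone, and 1.88% in GNP without them. No paired analysis was possible because there was 1 library per cell type.

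Depth is unknown, and how much of the uncalled sequence is repeats was not tested. Neighbours that overlap do not occur in these lists, and 13 windows of 1 chromosome are not replicates of a cell type.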
